A study of Mus musculus with 3 samples.

Results

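The siBrd8 libraries were made from mouse fibroblasts in which Brd8, a bromodomain subunit of a histone acetyltransferase complex, was targeted by pooled siRNAs during the first days of reprogramming to pluripotency. They were chosen by the column names of the count table, and they are 3 of the 129 libraries of the series, 1 in each of 3 sequenced pools. The reference was a non-targeting siRNA (nt, 3 libraries, 1 per pool), and a transfection without siRNA (Mock, 6 libraries, of which 5 passed the quality filter of the study) served as a second control. All of these groups shared the cells and the medium. The cells were wild-type BL6 primary mouse embryonic fibroblasts (MEFs) reprogrammed at passage 2. They carried lentiviruses with a doxycycline-inducible cassette of Oct4, Sox2, Klf4 and c-Myc (tet-STEMCCA) and with rtTA, the transactivator that doxycycline needs. After transduction they were reverse transfected with siRNA and RNAiMAX lipofectamine, and a day later they were re-plated and induced with doxycycline in a medium with chiron, Alk5i, ascorbic acid and LIF. RNA of day 6 was profiled in bulk, so a library mixes reprogramming and non-reprogramming cells, and a lower share of a cell type cannot be told apart from less RNA per cell. The labels do not say whether the 3 pools came from separate embryos or cultures, so p-values measure the spread between libraries, which may be technical.

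The NuA4/TIP60 complex acetylates histones H4 and H2A through its catalytic subunit Kat5, and its large ATPase subunit Ep400 places the histone variant H2A.Z in nucleosomes. Brd8 carries a bromodomain, a fold that binds acetylated lysine, and was first described as a coactivator of thyroid hormone and retinoid receptors. The complex is also known as a coactivator of p53 and of Myc, a transgene of this system, and as a factor needed by embryonic stem cells.

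Counts are of unique molecular identifiers (UMIs) at transcript 3′ ends. The siBrd8 libraries held 67003, 57364 and 133217 counts in replicates 1, 2 and 3, and the nt libraries held 75100, 80136 and 143156. The 5 Mock libraries were shallower, with 38925 to 83089 counts. A level is given as counts per 1e6 counts (CPM) of the genes that could be tested, with the TMM scaling between libraries. In the siBrd8 libraries 3 counts, taken as the lowest usable count, were worth 22.5 to 52.3 CPM of all counts. In the unit of the levels they were worth 56.2, 59.6 and 26.0 CPM in replicates 1, 2 and 3. No pair of siBrd8 libraries was a duplicate: their counts gave a chi-square of 1.79 to 2.11 for each gene compared, where sampling alone gives about 1. Fibroblast markers were present in every siBrd8 library, with Pdgfrb alone of the 10 at 0, and their summed level was 2703 to 2839 CPM against 2100 to 3081 CPM in nt and 2483 to 3863 CPM in Mock. The 13 macrophage markers were all at 0 in siBrd8 (nt 16.3 to 29.9 CPM, Mock 0 to 51.6 CPM). Of 11 endothelial markers 9 were at 0 there, where 9 of the 11 had a count in any library, and of 8 erythroid markers 7 were at 0, where 1 had a count in any library. Neuronal markers summed to 312 to 637 CPM in siBrd8 (nt 329 to 450 CPM) and keratinocyte markers to 18.7 to 119 CPM (nt 66.6 to 165 CPM). The part of these cells in the results was not tested. The mitochondrial genome gave 22.1 to 26.9% of counts in siBrd8 and 22.8 to 26.3% in nt, and cytoplasmic ribosomal proteins gave 4.80 to 6.22% and 4.48 to 5.76%.

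The first question was whether Brd8 mRNA was lower in its own knockdown. It was not detectably so at this depth. Brd8 had 3, 1 and 2 counts in the siBrd8 libraries, 0, 6 and 1 counts in the nt libraries and 6 counts in the 5 Mock libraries together. The nt libraries lay on both sides of the siBrd8 libraries. Its transcript also holds a stretch at least 95% identical to transcripts of 8 other genes. Over all libraries used, Brd8 had 207 counts, and 92 libraries had at least 1. The 6 counts in siBrd8 compare with 4.85 expected from its share in the remaining transfected libraries, taken pool by pool, a ratio of 1.24 with an exact 95% Poisson interval of 0.454 to 2.69. That interval covers counting error only, and it includes a marked lowering as well as a rise. The fitted log2 fold change against nt was -0.010 ± 1.06 (SE, n = 3 each; edgeR adjusted p = 1.00). Its sign rested on single libraries, since it became 2.24 without replicate 2, where nt had its 6 counts, and was -0.98 and -0.21 without replicates 1 and 3. Which siRNA these libraries received therefore rests on the column names, and "siBrd8" below is the name of the libraries, not a measured loss of Brd8.

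The other subunits of the complex were mostly measured at low counts too, and none of the 5 that could be tested passed the test against nt, Mock or the mean of the other 32 siRNAs. Kat5, the acetyltransferase, had 2 counts in siBrd8 where 1.57 were expected, and Ep400 had 4 where 4.51 were expected. Trrap, the scaffold that activators bind, had 1 count where 2.32 were expected. The ATPases Ruvbl1 and Ruvbl2 had 7 and 3 counts where 3.76 and 2.27 were expected. Meaf6 and Vps72 were at 0 in all 3 siBrd8 libraries, where 3.67 and 2.33 counts were expected. The subunit farthest above its expectation in counts was Yeats4, a reader of acetylated histones, with 31 counts where 16.3 were expected (ratio 1.91, interval 1.29 to 2.70). Yeats4 measured 149.9, 278 and 78.1 CPM in siBrd8, 50.0, 59.8 and 40.8 CPM in nt and 206, 103, 28.8, 124 and 59.7 CPM in Mock. All 3 siBrd8 libraries were above all 3 nt libraries and overlapped the Mock libraries. Its log2 fold change was 1.57 ± 0.53 against nt (adjusted p = 0.162), 0.63 ± 0.47 against Mock (adjusted p = 0.726) and 0.96 ± 0.34 against the other siRNAs (adjusted p = 0.207), so it did not pass. Morf4l2, a relative of Morf4l1 and the subunit with the most counts, had 114 counts where 107.0 were expected (interval of the ratio 0.879 to 1.28).

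**Figure D1:**
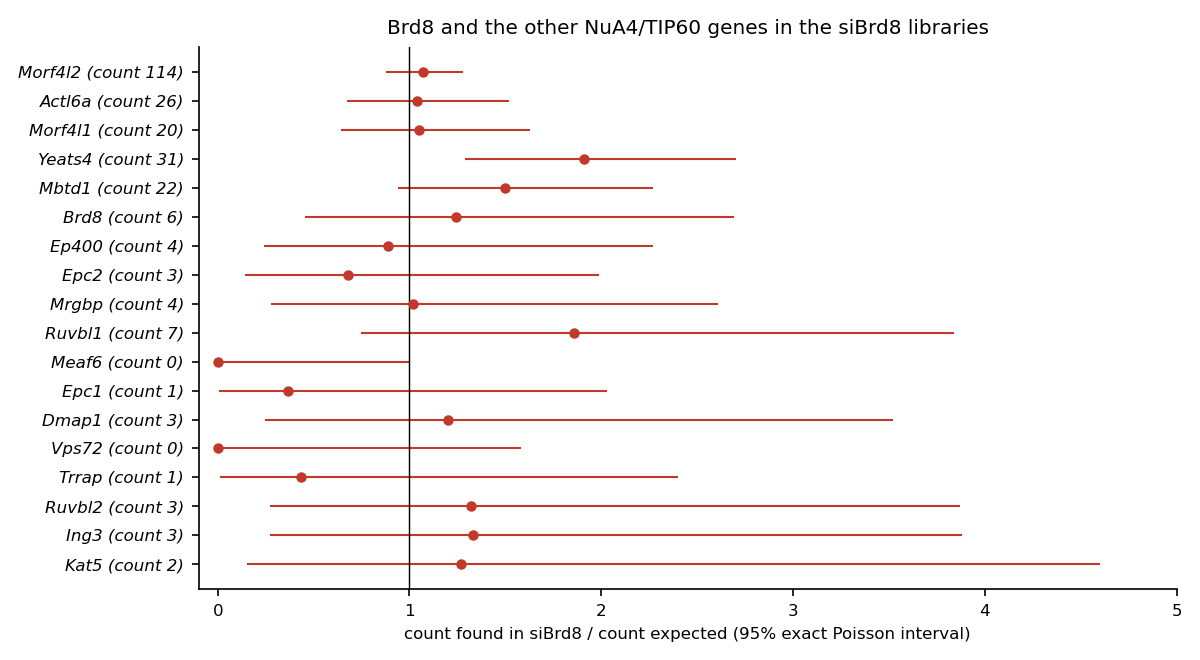
Ratio of the count found in the 3 siBrd8 libraries to the count expected, pool by pool, from the remaining transfected libraries, for Brd8 and the other genes of its complex; bars are exact 95% Poisson intervals, and the vertical line marks a ratio of 1. The interval of Brd8 runs from 0.454 to 2.69, and that of Yeats4, from 1.29 to 2.70, lies above 1.

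Against nt, 24 of the 3013 tested genes differed in siBrd8 (edgeR quasi-likelihood test with the sequenced pool as a block, adjusted p under 0.05), 0.797% of those tested. Of these, 12 were higher and 12 lower, 0.398% each. The split moved with the fit, to 2 higher and 17 lower against nt and Mock pooled, 3 and 11 without a filter on low counts, and 20 and 35 with the compared conditions alone. The higher genes held the cell cycle inhibitor Cdkn1a, the polyamine regulator Oaz1, the galectin Lgals1, the G protein subunit Gnai2, the splicing factor Puf60, the ribosomal protein genes Rpl10a and Rplp2 and the mitochondrial transcript mt-Co3. The lower genes held the chaperone Hspa4, the nuclear proteins Pnn and Bclaf1, the metallothionein Mt2, the mitochondrial transcript mt-Nd5 and 4 processed copies of Npm1. Among these 24, 5 of the higher and 6 of the lower genes had a near-identical copy elsewhere in the annotation (at least 95% identity over 100 bases), so reads of 1 gene can be counted in another. The call depended on the fit. Without the pool as a block, 0 genes passed (216 of 3013 at an unadjusted p under 0.05, against 317 of 3013 with the block), and limma on the deposited log2 values also called 0 (557 of 10568 unadjusted). Without replicate 2 no gene passed, without replicate 3 there were 4 and without replicate 1 there were 23. Log2 fold changes without replicate 2 were, for example, 0.94 for Cdkn1a and -1.95 for Gm10335, beside 1.00 and -2.04 with all replicates, and -0.77 for Gm5611 beside -1.10. Each of the 24 kept its direction in every alternative in which it was tested.

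**Figure D2:**
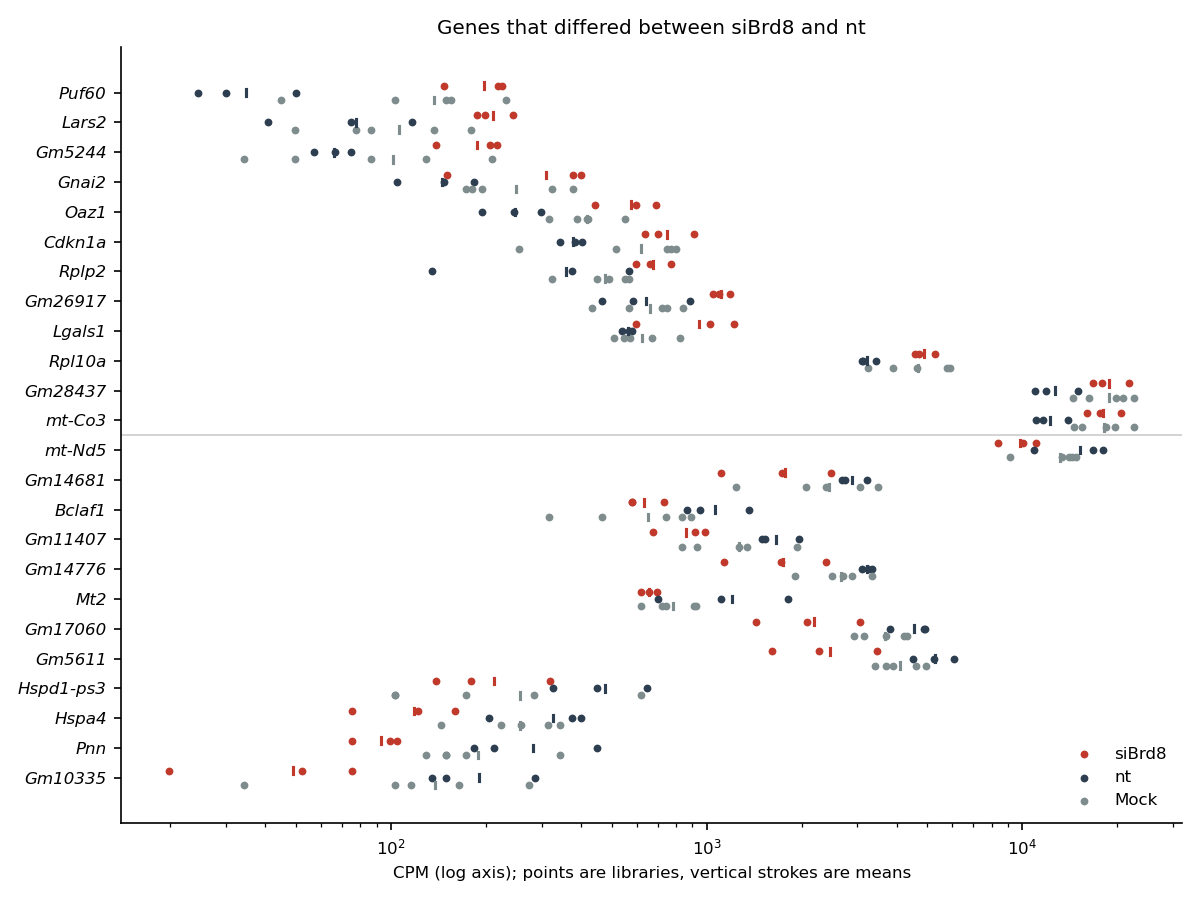
Level of the 24 genes that differed between siBrd8 and nt, in CPM on a log axis, in each siBrd8 (red), nt (dark) and Mock (grey) library; vertical strokes are group means, and the grey line separates genes higher in siBrd8 (above) from those lower (below). In 22 of the 24 the siBrd8 and nt libraries did not overlap, and in 4 the siBrd8 and Mock libraries did not.

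Separation of the libraries was common in all tested genes: siBrd8 lay wholly above nt in 5.71% and wholly below in 7.17% of them, and wholly above Mock in 2.06% and below it in 2.52%. The comparison with nt chose the 24 genes, so their separation there is a description. Condition ranks given below are over the means of the 33 siRNAs, nt and Mock, 35 in all; for genes chosen by a comparison the choice favours extreme ranks of the conditions compared, so they too are descriptions.

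Among genes of growth control, Cdkn1a, which encodes the p21 inhibitor of cyclin-dependent kinases and is a classical p53 target, measured 637, 914 and 703 CPM in siBrd8, 383, 404 and 343 CPM in nt and 799.9, 515, 749, 769.6 and 254 CPM in Mock. Each siBrd8 library was above each nt library, while 3 of the Mock libraries were near the siBrd8 levels. The log2 fold change was 1.00 ± 0.23 against nt (adjusted p = 0.00604), 0.39 ± 0.21 against Mock (adjusted p = 0.589) and 0.30 ± 0.15 against the mean of the other siRNAs (adjusted p = 0.556). By condition means, nt was second lowest of 35 and siBrd8 was 6th from the highest. It was the 1 member called of 15 tested p53 targets, where 0.797% of all genes were called. In that list Phlda3 and Ccng1 had log2 fold changes of 0.95 ± 0.33 and -0.40 ± 0.18 against nt (adjusted p = 0.178 and 0.378), and Mdm2 of -0.35 ± 0.40. Oaz1, the antizyme that targets ornithine decarboxylase for breakdown, measured 693, 596 and 443 CPM in siBrd8 and 299.8, 194 and 245 CPM in nt, with 387, 549, 317, 422 and 418 CPM in Mock. It had the highest mean of the 35 conditions in siBrd8 and the lowest in nt (log2 fold change 1.17 ± 0.25, adjusted p = 0.00316; 0.43 ± 0.23 against Mock, adjusted p = 0.576). Oaz1 shares an identical stretch with its copy Oaz1-ps. Lgals1, a secreted galectin abundant in fibroblasts, measured 1218, 596 and 1024 CPM in siBrd8 and 566, 538 and 580.0 CPM in nt, with replicate 2 just above the nt range and replicates 1 and 3 well above it (0.75 ± 0.20, adjusted p = 0.0332). Gnai2, the inhibitory G protein alpha subunit, measured 149.9, 378 and 399 CPM in siBrd8 and 183, 105 and 147 CPM in nt. Its replicate 1 library lay within the nt range and below the nt library of the same pool, so the groups overlapped (1.17 ± 0.31, adjusted p = 0.0332).

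Lower in siBrd8 than in nt were a chaperone, a pair of nuclear RNA-associated proteins and a metallothionein, and with them Hspd1-ps3, a processed copy of the mitochondrial chaperonin gene Hspd1 (99.01% identity), at 319, 179 and 139 CPM in siBrd8 and 649, 449 and 327 CPM in nt (-1.17 ± 0.32, adjusted p = 0.0413). In Mock this copy ranged from 103 to 621 CPM, around the siBrd8 levels (-0.38 ± 0.35, adjusted p = 0.795). Hspa4, a nucleotide exchange factor of the Hsp70 family, measured 75.0, 159 and 122 CPM in siBrd8, 399.7, 374 and 204 CPM in nt and 258, 343, 144, 223 and 313 CPM in Mock. Its siBrd8 mean was the lowest of the 35 conditions, and the log2 fold change was -1.32 ± 0.36 against nt (adjusted p = 0.0413), -1.06 ± 0.37 against Mock (adjusted p = 0.216) and -0.87 ± 0.30 against the other siRNAs (adjusted p = 0.178). Pnn, a desmosome and splicing-associated protein, measured 75.0, 99.4 and 104 CPM in siBrd8 and 183, 449 and 212 CPM in nt, and all 3 siBrd8 libraries were also below the 5 Mock libraries, at 129, 343, 173, 149 and 149 CPM (-1.47 ± 0.39 against nt, adjusted p = 0.0332; -0.80 ± 0.43 against Mock, adjusted p = 0.576). Bclaf1, a nuclear protein linked to transcription and splicing, measured 581, 735 and 582 CPM in siBrd8 and 866, 1361 and 956 CPM in nt. There nt had the highest mean of the 35 conditions and siBrd8 the 13th lowest, and the log2 fold change of -0.75 ± 0.21 against nt (adjusted p = 0.0427) stood beside -0.085 ± 0.22 against Mock and -0.10 ± 0.16 against the other siRNAs. Mt2, a zinc- and copper-binding metallothionein, was even across siBrd8 at 618, 656 and 694 CPM and uneven across nt at 699, 1107 and 1805 CPM, so that 1 nt library lay close to the siBrd8 levels and replicate 3 was the farthest from them (-0.91 ± 0.20, adjusted p = 0.00316; -0.33 ± 0.21 against Mock, adjusted p = 0.665). Without replicate 3 its log2 fold change was -0.46, and it was called neither there nor without replicate 2. It was the 1 gene called of the 23 tested metallothionein and antioxidant genes, beside 0.797% of all genes.

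The RNA-binding splicing factor Puf60 had the largest log2 fold change upward, 2.47 ± 0.52 against nt (adjusted p = 0.00316). It measured 225, 219 and 148 CPM in siBrd8, 50.0, 29.9 and 24.5 CPM in nt and 155, 103, 231, 149 and 44.8 CPM in Mock, with the highest of 35 condition means in siBrd8 and the lowest in nt. The siBrd8 libraries overlapped the Mock libraries, and the difference there was 0.68 ± 0.41 (adjusted p = 0.642). The nt libraries held few counts of Puf60, so the size of this fold rests on a low reference. Lars2, the mitochondrial leucyl-tRNA synthetase, measured 187, 199 and 243 CPM in siBrd8, above every nt library at 117, 74.8 and 40.8 CPM and every Mock library at 77.4, 137, 86.5, 49.6 and 179 CPM. It had the highest siBrd8 mean of the 35 conditions (1.62 ± 0.44 against nt, adjusted p = 0.0381; 0.94 ± 0.40 against Mock, adjusted p = 0.416; 0.88 ± 0.27 against the other siRNAs, adjusted p = 0.119). Without replicate 3 its log2 fold change against nt was 1.04, and it was not called.

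Of 17 tested transcripts of the mitochondrial genome, 1 was higher and 1 lower than in nt, beside 0.398% of all genes each way. mt-Co3, subunit III of cytochrome c oxidase, measured 20579, 17626 and 16033 CPM in siBrd8, 13955, 11022 and 11609 CPM in nt and 22527, 18369, 19659, 14622 and 15404 CPM in Mock. Its nuclear copy Gm28437 measured 21816, 17824 and 16710 CPM in siBrd8 and 15054, 11008 and 11903 CPM in nt, close to mt-Co3 in every library. The copy lies on chromosome 1 (GRCm38, 24613189 to 24613971, minus strand) and matches mt-Co3 over 783 bases with no mismatch, so these reads cannot be assigned to either. To show why, 60 coding bases of mt-Co3 (724 to 783) are given here, which Gm28437 holds with 0 differences.

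mt-Co3: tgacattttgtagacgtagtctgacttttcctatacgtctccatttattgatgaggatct

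The log2 fold change of mt-Co3 was 0.57 ± 0.12 against nt (adjusted p = 0.00316) and 0.0098 ± 0.11 against Mock (adjusted p = 0.987). mt-Nd5, a subunit of complex I, measured 11058, 10015 and 8359 CPM in siBrd8, 16803, 18007 and 10873 CPM in nt and 14321, 13322, 14845, 14051 and 9150.1 CPM in Mock. The siBrd8 and nt groups overlapped, since 1 siBrd8 library exceeded the lowest nt library (-0.60 ± 0.14, adjusted p = 0.00604; -0.31 ± 0.13 against Mock, adjusted p = 0.397). Gm11407, a processed pseudogene on chromosome 4 that groups with mt-Nd5 by sequence, was lower as well, at 918, 676 and 989.6 CPM against 1532, 1959 and 1495 CPM (-0.87 ± 0.18, adjusted p = 0.00316). The 2 mitochondrial calls thus went in opposite directions, and the median log2 fold change of the 17 transcripts was 0.035 against nt, beside -0.011 for all tested genes.

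Among genes of translation, Rpl10a, a protein of the large ribosomal subunit, measured 5304, 4570.3 and 4722 CPM in siBrd8, 3131, 3096 and 3448 CPM in nt and 5780.2, 3879.8, 5880.3, 3252 and 4627 CPM in Mock. All siBrd8 libraries were above all nt libraries and inside the Mock range. The log2 fold change was 0.59 ± 0.14 against nt (adjusted p = 0.0130), 0.035 ± 0.13 against Mock (adjusted p = 0.966) and 0.42 ± 0.10 against the other siRNAs (adjusted p = 0.0122). Its processed copy Rpl10a-ps1 was also higher than in the other siRNAs (0.36 ± 0.10, adjusted p = 0.0374). Rplp2, an acidic protein of the ribosomal stalk, measured 768, 596 and 659.7 CPM in siBrd8, 566, 135 and 376 CPM in nt and 568, 549, 490.0, 323 and 448 CPM in Mock, and every siBrd8 library exceeded every control library (0.92 ± 0.23 against nt, adjusted p = 0.0120; 0.49 ± 0.21 against Mock, adjusted p = 0.429). Gm5244, annotated as coding and grouped by sequence with the stalk gene Rplp1, measured 206, 139 and 217 CPM in siBrd8 and 66.6, 74.8 and 57.2 CPM in nt (1.56 ± 0.43, adjusted p = 0.0427). Among 75 tested cytoplasmic ribosomal protein genes, Rpl10a and Rplp2 were the 2 called against nt, both higher, beside 0.398% of all tested genes. In this list 45 had a log2 fold change above 0, beside 1477 of all 3013, and the median was 0.066. Rpl8 was the 1 called against Mock (0.64 ± 0.17, adjusted p = 0.0248), where 0.0664% of all tested genes were called higher. It measured 1780.5, 1053 and 1319 CPM in siBrd8 and 799.9, 1099, 1038, 819 and 731 CPM in Mock (groups overlapping), beside 0.10 ± 0.16 against nt (adjusted p = 0.920). Against the mean of the other siRNAs, Rpl10a and Rps14 were called among these genes, and Eef2, the ribosomal translocation factor, was the 1 called of 42 tested translation factors, all 3 higher, where 0.266% of all genes were called higher in that comparison. Eef2 measured 675, 537 and 599 CPM in siBrd8 and 366, 299 and 417 CPM in nt (0.64 ± 0.16 against the other siRNAs, adjusted p = 0.0332; 0.71 ± 0.23 against nt, adjusted p = 0.141).

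The largest fold change downward was that of Gm10335, a processed copy of the ribosomal protein gene Rpl23a on chromosome 10 (GRCm38, 14523078 to 14523545, plus strand). It measured 75.0, 19.9 and 52.1 CPM in siBrd8, 149.9, 135 and 286 CPM in nt and 103, 34.3, 115, 273 and 164 CPM in Mock. Its siBrd8 mean was the lowest of the 35 conditions, with a log2 fold change of -2.04 ± 0.46 against nt (adjusted p = 0.00373), -1.69 ± 0.49 against Mock (adjusted p = 0.0946) and -1.75 ± 0.38 against the other siRNAs (adjusted p = 0.00361). In the siBrd8 and nt libraries these levels are 1 to 35 counts. A second copy, Rpl23a-ps3 on chromosome 14 (34170655 to 34171122, plus strand), was the other called gene of this family. It measured 37.5, 99.4 and 95.5 CPM in siBrd8, below every nt library (183, 149.6 and 147 CPM) and every Mock library (129, 172, 173, 199 and 224 CPM), and was called against the other siRNAs (-1.21 ± 0.32, adjusted p = 0.0497) but not against nt (-0.99 ± 0.43, adjusted p = 0.358). Rpl23a itself had 18.7, 0 and 26.0 CPM in siBrd8 and 33.3, 135 and 57.2 CPM in nt, less than Rpl23a-ps3 in each of these libraries, and 0, 0, 0, 24.8 and 29.9 CPM in Mock, which overlapped siBrd8. For Rpl23a alone nt had the highest mean of the 35 conditions. The reason to read them together is the sequence: over 60 bases of Rpl23a (coding bases 409 to 468) both copies had 0 differences.

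Rpl23a: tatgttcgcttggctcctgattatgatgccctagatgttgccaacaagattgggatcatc
Gm10335: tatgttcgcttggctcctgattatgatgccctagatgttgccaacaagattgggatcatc
Rpl23a-ps3: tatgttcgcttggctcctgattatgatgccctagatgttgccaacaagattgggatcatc

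Counts were therefore also summed over genes whose transcripts matched at 80% identity or more over at least 300 bases. These sums were built after the calls were seen and hold the genes that were called, so they are given with no test. The Rpl23a family, with 34 members that had counts and 2 that were tested singly, summed to 206, 238 and 391 CPM in the siBrd8 libraries, 516, 718 and 801 CPM in the nt libraries and 594, 378, 605, 844 and 761 CPM in the Mock libraries. The 3 siBrd8 libraries were lower than all 3 nt libraries, and the highest of them, replicate 3, exceeded the lowest Mock library. The log2 difference of siBrd8 was -1.27 ± 0.25 from nt, -1.31 ± 0.25 from Mock and -1.19 ± 0.20 from the other siRNAs, and it was the lowest of the 35 condition means, of which the siRNA median was 664. Across leaving out each replicate, leaving out the block and another scaling, the difference from nt ran from -1.44 to -1.10 and that from the other siRNAs from -1.20 to -1.14.

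Copies of Npm1, the nucleolar chaperone nucleophosmin, were the other group of lower genes. Gm5611 on chromosome 9 (GRCm38, 17030045 to 17030896, plus strand) measured 3467, 1609.6 and 2274 CPM in siBrd8, 5262, 6057 and 4501 CPM in nt and 4954, 4601, 3689.6, 3898 and 3418 CPM in Mock. All siBrd8 libraries were below all nt libraries, with replicate 1 nearest to them. The log2 fold change was -1.10 ± 0.19 against nt (adjusted p = 4.99e-05), -0.70 ± 0.18 against Mock (adjusted p = 0.0229) and -0.14 ± 0.14 against the other siRNAs (adjusted p = 0.834). Gm17060 on chromosome 6 (49424061 to 49424884, minus strand) was likewise called against both controls, by -1.04 ± 0.19 and -0.69 ± 0.18 (adjusted p = 0.000123 and 0.0248), and not against the other siRNAs (-0.12 ± 0.14, adjusted p = 0.852). Gm14776 and Gm14681, both on chromosome X, were called against nt alone (-0.89 ± 0.19 and -0.72 ± 0.19, adjusted p = 0.00316 and 0.0239). In Gm5611, Gm17060 and Gm14776 nt had the highest of the 35 condition means, and siBrd8 was 12th from the lowest in each. Npm1 itself measured 5510.2, 5067 and 5833 CPM in siBrd8 and 5729, 5997 and 6977 CPM in nt, with overlap (-0.19 ± 0.14, adjusted p = 0.685). The sum over 11 members with counts was 17243, 10492 and 13932 CPM in siBrd8, 22948, 23286 and 21583 CPM in nt and 21031, 22317, 15191, 19214 and 19584 CPM in Mock. The log2 difference of this sum was -0.71 ± 0.15 from nt (-0.85 without replicate 1 to -0.49 without replicate 2), -0.48 ± 0.14 from Mock and -0.030 ± 0.11 from the other siRNAs. How alike the transcripts are is shown by a coding stretch of Npm1 (coding bases 568 to 627) with the closest stretch of each called copy, in which capitals mark bases that differ from Npm1.

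Npm1: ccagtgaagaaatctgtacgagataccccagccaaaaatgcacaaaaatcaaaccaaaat
Gm5611: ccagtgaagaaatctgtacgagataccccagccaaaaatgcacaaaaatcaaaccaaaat
Gm14681: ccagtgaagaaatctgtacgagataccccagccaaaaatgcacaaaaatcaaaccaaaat
Gm14776: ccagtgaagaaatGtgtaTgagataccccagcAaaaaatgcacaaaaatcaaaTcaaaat
Gm17060: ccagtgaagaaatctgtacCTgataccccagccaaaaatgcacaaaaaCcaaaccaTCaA

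Over these 60 bases Gm5611 and Gm14681 had 0 differences from Npm1, Gm14776 had 4 and Gm17060 had 6.

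Gm26917, annotated as a long non-coding RNA gene on chromosome 17 (GRCm38, 39843013 to 39846341, plus strand), was the single gene called in all 3 comparisons. It measured 1049.6, 1093 and 1189 CPM in siBrd8, 883, 583 and 466 CPM in nt and 748, 721, 432, 844 and 567 CPM in Mock. The siBrd8 libraries were even and all lay above the 8 control libraries, whose highest was the nt library of replicate 1. The log2 fold change was 0.87 ± 0.20 against nt (adjusted p = 0.00539), 0.80 ± 0.19 against Mock (adjusted p = 0.00997) and 0.90 ± 0.14 against the other siRNAs (adjusted p = 8.26e-07), and siBrd8 had the highest mean of the 35 conditions. The locus lies near sequence related to 18S ribosomal RNA, and whether its reads come from ribosomal RNA was not tested. The neighbouring Gm42418, which is read far more often, did not pass the test, at 20316, 16910 and 18159 CPM in siBrd8 and 21749, 25156 and 19852 CPM in nt (-0.26 ± 0.18, adjusted p = 0.684). Gm26917 kept its call against the other siRNAs in 6 of 8 alternatives, against nt in 5 of 10 and against Mock in 4 of 9.

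**Figure D3:**
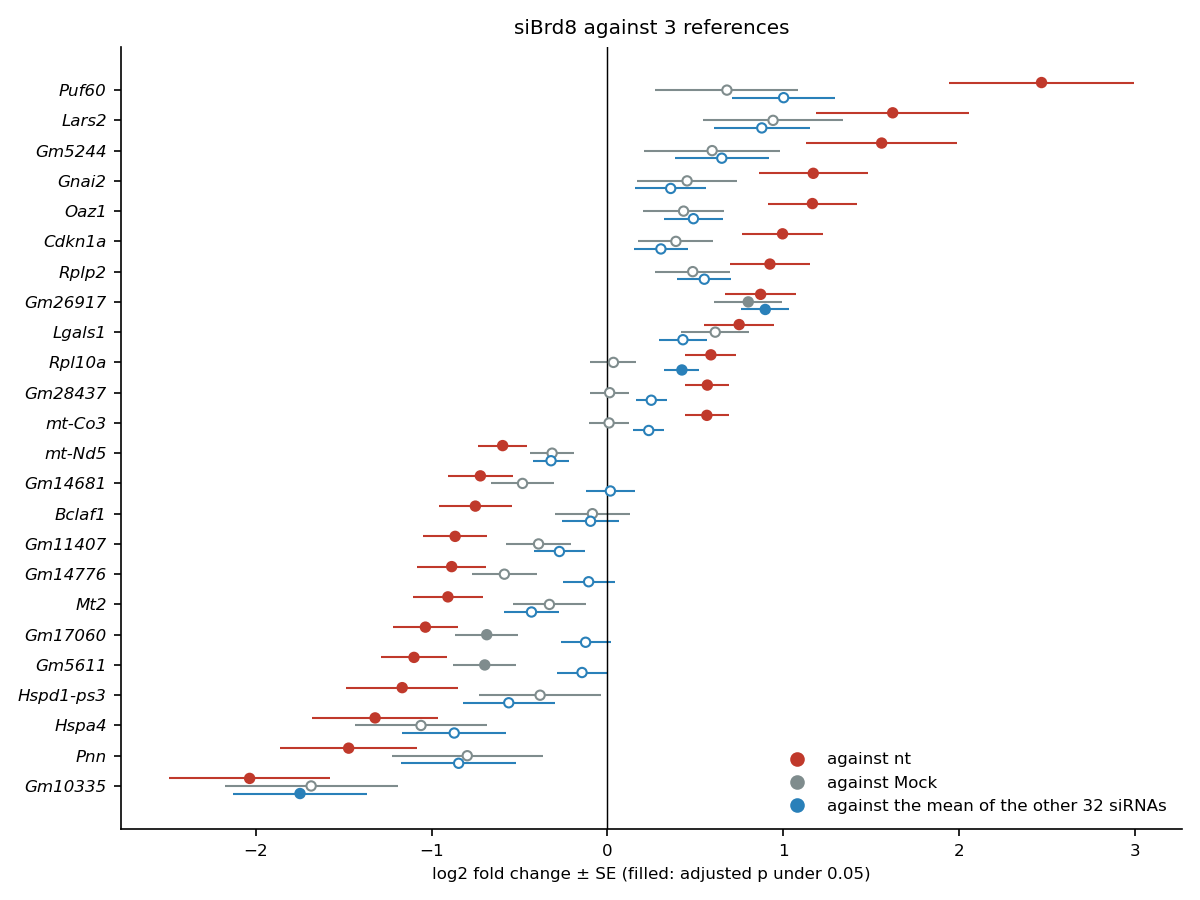
Log2 fold change of siBrd8, with SE, for the 24 genes that differed from nt, against nt (red), Mock (grey) and the mean of the other 32 siRNAs (blue); filled points have an adjusted p under 0.05. Gm26917 is filled in all 3, and the Npm1 copies Gm5611, Gm17060, Gm14776 and Gm14681 lie near 0 against the other siRNAs.

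Against Mock, 19 genes differed (0.631% of those tested), 2 higher (0.0664%) and 17 lower (0.564%). Between the controls themselves, 47 genes differed (1.56%), 31 higher in Mock (1.03%) and 16 lower (0.531%), with 5 Mock and 3 nt libraries. Fitted on the compared conditions alone, the controls differed in 39 of 958 tested genes and siBrd8 and nt in 55 of 1095. In a comparison added after the data were seen, nt differed from the mean of the siRNAs other than siBrd8 in 27 genes (0.896%), 25 higher (0.83%) and 2 lower (0.0664%). Higher than in Mock were Gm26917 and Rpl8. Most of the lower genes were predicted genes of a repeat family at the start of the chromosome 9 assembly, within 3000282 to 3038316 of GRCm38, the end at which mouse chromosomes have their centromere, with related genes on chromosome 2 (Gm10800 and Gm10801) and chromosome 14 (Gm21738). Gm10800, the most abundant of the family, measured 3149, 1689 and 1988 CPM in siBrd8, 3614, 2946 and 3823 CPM in nt and 4696, 7966, 5477, 4866 and 6404 CPM in Mock. No siBrd8 library reached a Mock library, while the siBrd8 and nt libraries overlapped. The log2 fold change was -1.40 ± 0.18 against Mock (adjusted p = 7.28e-10), -0.91 ± 0.15 against the other siRNAs (adjusted p = 1.50e-05) and -0.63 ± 0.20 against nt (adjusted p = 0.116). Against nt it passed in 4 of 10 alternatives, among them without replicate 1 (-0.86), and was -0.42 without replicate 3, with adjusted p from 6.85e-06 to 0.897 over the alternatives. Gm10722 had the largest fold change against Mock (-2.62 ± 0.40, adjusted p = 1.86e-07). Summed over the 12 members of the family, the counts gave 6635, 3418 and 4349 CPM in siBrd8, 7227, 5504 and 8055 CPM in nt and 10735, 19742, 13202, 11444 and 16046 CPM in Mock. The log2 difference of the sum, with no test, was -1.60 ± 0.18 from Mock, -0.91 ± 0.15 from the other siRNAs and -0.54 ± 0.19 from nt. The difference from nt ran from -0.78 without replicate 1 to -0.32 without replicate 3. By condition mean siBrd8 was 3rd from the lowest of 35, nt 10th and Mock 32nd. Gm26870, annotated on the opposite strand of the same stretch, was lower too (-0.86 ± 0.17 against Mock, adjusted p = 0.000493). The sum over the 12 members ranged over the siRNAs from 2670 CPM in siBard1 to 23362 CPM in siEny2. Gm13408 (a copy of Rps3a1), Gm5392 (of Rpl7) and Gm10222 (of mt-Nd4l, with no mismatch over 294 bases) were the other lower genes beside the Npm1 copies, with log2 fold changes of -0.93 ± 0.19, -0.88 ± 0.22 and -0.93 ± 0.22 against Mock. Against nt, Gm13408, Gm5392 and Gm10222 had 0.37 ± 0.21, -0.45 ± 0.23 and 0.084 ± 0.25 (adjusted p = 0.566, 0.485 and 0.963).

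The comparison with the mean of the other 32 siRNAs does not use the nt or Mock libraries and asks what set siBrd8 apart from the rest of the screen. It gave 15 genes (0.498%), 8 higher (0.266%) and 7 lower (0.232%). The higher genes were Gm26917, Eef2, Rpl10a, Rpl10a-ps1, Rps14, the copies Gm6204 (of Rps14) and Rps16-ps2, and Far1. Far1, a peroxisomal reductase that makes fatty alcohols for ether lipids, measured 131, 159 and 199.7 CPM in siBrd8, 167, 105 and 98.0 CPM in nt and 51.6, 68.7, 115, 223 and 59.7 CPM in Mock. The difference was 1.22 ± 0.30 against the other siRNAs (adjusted p = 0.0204) and 0.50 ± 0.41 against nt (adjusted p = 0.708). The lower genes were the Rpl23a copies Gm10335 and Rpl23a-ps3 and the repeat-family genes Gm10717, Gm10800, Gm10801 and Gm21738 with Gm26870 on the opposite strand. Among all 33 siRNAs compared with nt, siBrd8 was 21st by the number of genes called, in a range from 4 to 821 with a median of 31. These comparisons share the nt libraries, and those of siBrd8 share the siBrd8 libraries.

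**Figure D4:**
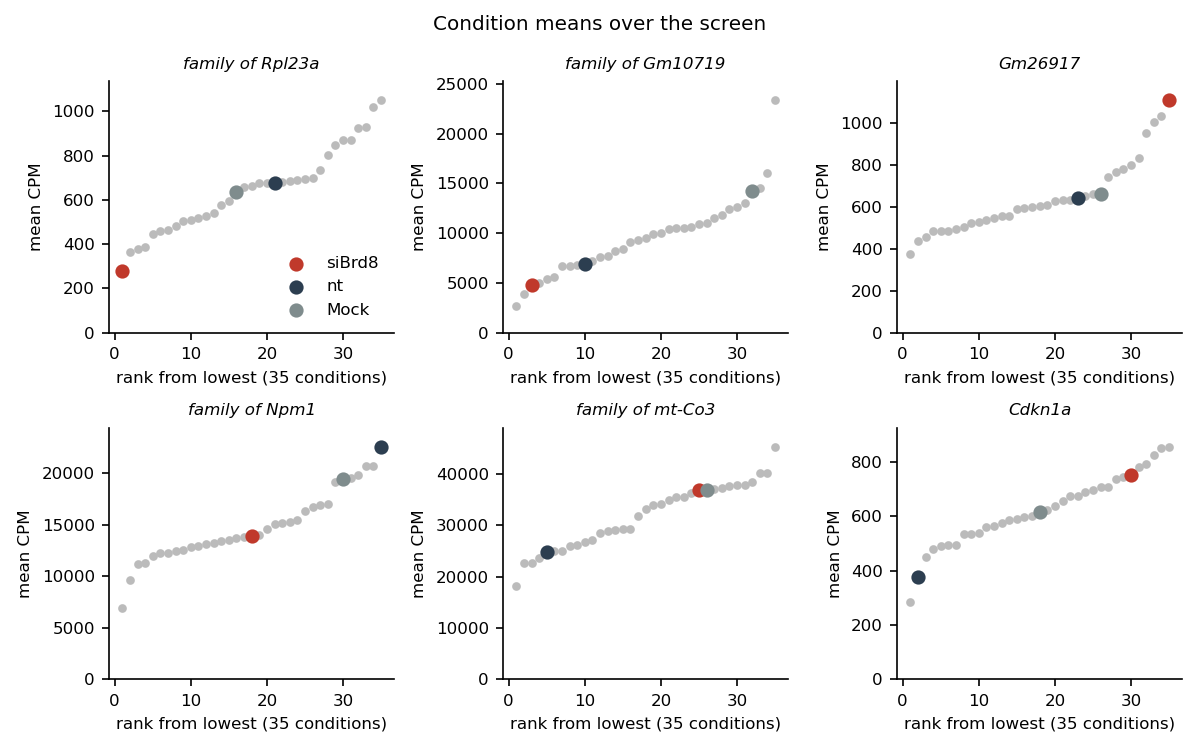
Mean CPM of each of the 33 siRNAs, nt and Mock, ranked from lowest to highest, for 2 single genes and 4 families grouped by sequence (80% identity over 300 bases) whose counts were summed; siBrd8 is red, nt dark, Mock grey and the other siRNAs pale. siBrd8 is lowest for the Rpl23a family and highest for Gm26917, while nt is highest for the Npm1 family and second lowest for Cdkn1a.

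Outside translation and the genes above, the pathway lists held no gene that passed the test in any of the 3 comparisons. This held for 17 tested bromodomain genes, 4 genes of the retinoid and thyroid hormone response, 34 genes of ribosome biogenesis, 50 nuclear genes of the respiratory chain, 33 splicing factors of the hnRNP and SR families and 21 chaperones of a list that does not hold Hspa4. Of all tested genes, 0.797%, 0.631% and 0.498% were called against nt, Mock and the other siRNAs, so a list of such a size without a call is near that share. The summed chaperones were 14009 to 14574 CPM in siBrd8, below nt at 16028 to 18451 CPM and Mock at 14820 to 16584 CPM, with 9 of 21 above 0 against nt. Summed ribosome biogenesis genes were 13810 to 14340 CPM in siBrd8, below nt at 15345 to 16363 CPM and within Mock at 12654 to 15165 CPM, with 11 of 34 above 0 against nt. H2afz, which encodes H2A.Z, had a log2 fold change of -0.014 ± 0.16 against nt (adjusted p = 0.995) at a mean of 2104 CPM in siBrd8 and 2112 CPM in nt. In Mock its mean was 2941 CPM, and the log2 fold change there was -0.49 ± 0.15 (adjusted p = 0.132). Crabp1, a retinoic acid carrier, had 0.10 ± 0.21 (adjusted p = 0.940). Medians of some lists without a called member were away from that of all genes. Fibroblast markers had a median log2 fold change of 0.49 against nt, with 5 of 8 above 0 and a sum within the nt range, extracellular matrix genes 0.41 with 23 of 33 above 0 (sums of 4967 to 5246 CPM in siBrd8 and 3872 to 4929 CPM in nt), and mesenchymal transcription factors 0.32 with 8 of 9 above 0 (1908 to 2455 CPM and 1413 to 1899 CPM), where all 3013 genes had -0.011 with 1477 above 0. DNA replication and S phase genes had -0.52 with 4 of 13 above 0 (1837 to 2881 CPM and 2720 to 3365 CPM) and genes of mitosis -0.30 with 11 of 31 above 0 (4461 to 4592 CPM and 4879 to 6087 CPM). Against Mock the medians of the same lists were -0.025, -0.015, -0.011, -0.084 and 0.20. Genes of the low-oxygen response had -0.45 against nt with 1 of 6 above 0 (0.068 against Mock), and sterol and fatty acid synthesis genes -0.36 with 3 of 11 above 0 (-0.12 against Mock). The summed level of the latter was 1274.5, 1192 and 1154.5 CPM in siBrd8, the lowest mean of the 35 conditions, 1915, 2213.5 and 1658 CPM in nt, and 1187 to 1746 CPM in Mock, which siBrd8 overlapped. Col1a1 and Col1a2, the chains of type I collagen, had 0.72 ± 0.34 and 0.58 ± 0.27 against nt (adjusted p = 0.429 and 0.399), and Top2a, the topoisomerase of dividing cells, had -0.92 ± 0.27 (adjusted p = 0.0624). Epithelial and pluripotency genes were mostly too low to test: 1 of 23 and 1 of 31 passed the filter. Their summed levels were 199 to 217 CPM and 156 to 187 CPM in siBrd8, 283 to 314 CPM and 261 to 450 CPM in nt, and 181 to 378 CPM and 259 to 464 CPM in Mock. The siBrd8 libraries were below the nt libraries in both sums. The epithelial sum lay within the Mock range and the pluripotency sum below it.

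The untransfected time course shares no library with siBrd8 or nt. Between its days 0 and 6, 668 genes differed (22.2%), 321 higher (10.7%) and 347 lower (11.5%). Of the 24 genes that differed between siBrd8 and nt, 10 were among them, 3 in the same direction and 7 in the opposite one. Over the 3013 genes, the log2 fold changes of siBrd8 against nt and of day 6 against day 0 had a Pearson correlation of -0.073 and a Spearman correlation of -0.022 as a description across genes. Mt2 rose over the time course from 51.8 to 973 CPM as means of days 0 and 6 and was lower in siBrd8 than in nt. Rpl10a rose from 1009 to 2323 CPM and was higher in siBrd8. Gm26917 had 107 CPM on day 0 and 472 CPM on day 6, with its highest mean on day 3 at 922 ± 347 CPM (SD, n = 3), beside a siBrd8 mean of 1111 CPM. The Npm1 family had 2026 CPM on day 0, its highest mean of 9340 CPM on day 5 and 4575 CPM on day 6. The last was below siBrd8, nt and Mock alike, so untransfected and transfected cells of day 6 differed in level and were not compared further.

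**Figure D5:**
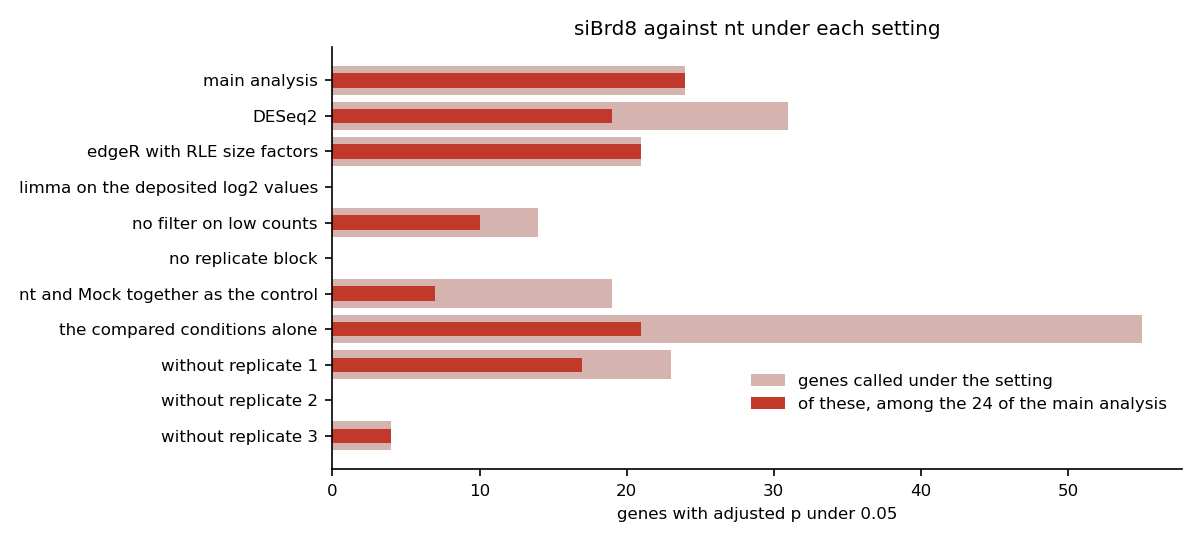
Number of genes called between siBrd8 and nt under the main analysis and each alternative (pale bars), and how many of them are among the 24 genes of the main analysis (dark bars). The count runs from 0 without the block, without replicate 2 or with limma to 55 when only the compared libraries are fitted.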

How the data were processed

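Gene counts of CEL-Seq2 libraries were deposited by the authors: reads were mapped with Bowtie2 to mm10, assigned to GENCODE vM13 genes and collapsed by UMI. The authors also deposited a log2 table, scaled by size factors and with the batch regressed out, which served for the limma alternative and for the choice of libraries that passed their quality filter. Conditions and replicate numbers were read from the column names. Of the 129 libraries with counts, those in the log2 table were used. The single Mock column of replicate 3 in that table was matched to 1 of 2 count columns by correlation (0.924 against 0.0172).

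Of 50507 genes, 3013 passed filterByExpr. They were fitted in edgeR 4.0.16 (R 4.3.3; TMM, quasi-likelihood, condition plus replicate block, 83 residual degrees of freedom), with Benjamini-Hochberg adjustment over all tested genes and a threshold of 0.05. The block stands for the 3 sequenced pools, which the labels tie to the replicate number. Deviations of same-numbered siBrd8 and nt libraries correlated at 0.073, 0.080 and 0.252, and over all conditions the median was 0.098 for the same and -0.068 for different numbers. DESeq2 1.42.0, limma 3.58.1, other scalings, other filters and each replicate left out were alternatives. Genes too low for the main filter, Brd8 among them, were fitted with a lower filter (3551 genes).

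Named were all genes called against nt (at most 30), those called the same way against both controls, the 5 largest in each direction against the other siRNAs, the complex of Brd8 and called members of the gene lists. Others were named after their values were seen. The members and lists were chosen with earlier results of these data known. Positions and transcript sequences are from GENCODE vM21 (GRCm38), and copies were found with blastn 2.17.0. Intervals cover counting error only.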

Additional observations from a re-analysis of the deposited data

Results flagged for a closer look

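The 5 Mock libraries were examined for each of 63 named genes and families, and in 7 a library lay far from the other 4. The limit used gives about 1 in 20 by chance for normally distributed values. That rate does not hold for counts near 0, so the 7 are a description. In 4 of these the level rests on 1 to 4 counts. Brd8 stood at 137 CPM (4 counts) in a Mock library of replicate 1, with the others at 0 to 25.8 CPM, and Ruvbl1 stood at 68.7 CPM (2 counts) in the same library, with the others at 0. Ing3 stood at 24.8 CPM (1 count) and Ruvbl2 at 74.5 CPM (3 counts) in a Mock library of replicate 2, with the others at 0 and at 0 to 14.9 CPM. For Pnn, the same Mock library of replicate 1 as for Brd8 stood at 343 CPM (10 counts), with the others at 129 to 173 CPM. For mt-Nd5, the Mock library of replicate 3 stood at 9150 CPM, below the others at 13322 to 14845 CPM. The sum over mt-Nd5 and its copies, which holds the counts of mt-Nd5 and is no separate case, was lowest in the same library, at 10747 CPM against 15622 to 17209 CPM. Groups of 3, siBrd8 and nt among them, were not examined in this way.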

How the results depend on the processing

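The 24 genes called between siBrd8 and nt kept their direction in every alternative in which they were tested, but their number depended on the fit. It was 31 with DESeq2 (19 of the 24 among them), 21 with another scaling (RLE), 14 without a filter on low counts (10 of the 24), 19 against nt and Mock pooled as 1 control (7 of the 24) and 55 of 1095 tested when only the compared conditions were fitted. It was 0 with limma on the deposited log2 values (557 of 10568 genes at an unadjusted p under 0.05) and 0 with no replicate block (216 of 3013 unadjusted). Leaving out 1 replicate gave 0 to 23 genes, with 0 without replicate 2.

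The count against Mock, 19 in the main analysis, was 7 with limma, 12 without a filter, 9 with no replicate block and 7 to 19 with 1 replicate left out. Gm10715, Gm10717, Gm10722, Gm10800, Gm10801, Gm11168 and Gm21738 were called in all 9 alternatives of that comparison. Against the mean of the other siRNAs, 15 in the main analysis became 32 with DESeq2, 1 with limma, 1 with no replicate block and 1 to 10 with 1 replicate left out. Between Mock and nt, 47 became 1 with limma, 19 without a filter, 10 with no replicate block and 15 to 21 with 1 replicate left out. The cause of these differences was not tested.

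The Brd8 level against nt, -0.010 on the log2 scale, ran from -0.98 to 2.24 with 1 replicate left out and turned positive without replicate 2, where nt held 6 of its 7 counts. At 57364 to 133217 counts a library, a gene with fewer than about 3 counts a library, such as Brd8, could not be resolved.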
